A study of Mus musculus with 4 samples.

Results

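The 9 genes described here are regulators and targets of the ATF4 stress response: Atf4, Atf5, Ddit3, Asns, Trib3, Chac1, Sesn2, Ppp1r15a and Ddit4. They were chosen by symbol as factors of the integrated stress response and direct targets outside serine metabolism, and all 9 were among the 16442 genes of the deposited table. Poly(A) RNA was sequenced from leukaemia stem cells, the bone marrow fraction able to regrow the leukaemia, of C57BL/6 mice with leukaemia. Wild-type cells (WT) were compared with cells lacking Rreb1, a zinc-finger DNA-binding protein (KO), with 2 biological replicates of each. The labels do not give the age of the mice, the leukaemia model, the deleted part of Rreb1 or how many mice went into a replicate. The genotype label of KO replicate 2 reads Rreb2-KO, and the extraction text names tumour-associated macrophages, so libraries were grouped by their titles. Rreb1 stood at 5.24 and 6.57 FPKM in WT and at 6.10 and 6.93 in KO (limma adjusted p = 0.616). FPKM is the number of fragments on a gene scaled to its exonic length and to the fragments assigned in the library. These values sum reads from every exon and can miss a deletion of few exons. The labels are thus unchecked by the RNA, and all directions are between libraries labelled KO and libraries labelled WT.

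The integrated stress response begins when one of several kinases phosphorylates the translation initiation factor eIF2, as happens in amino acid shortage, viral infection, haem shortage or with unfolded protein in the endoplasmic reticulum. General translation then slows, while the mRNA of Atf4 is translated better because of short upstream reading frames. The ATF4 protein, a bZIP transcription factor, binds DNA with C/EBP partners and turns on genes of amino acid supply, redox balance and feedback. Because much of this control acts on translation, the level of Atf4 mRNA does not measure ATF4 protein, and phosphorylated eIF2 was not measured here.

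ATF4 with its C/EBP partners binds a composite element whose core was searched as TGATGNAA on both strands in RefSeq promoter windows (GRCm38.p6, 250 bases before to 50 after a start site). All 9 genes had a window, Atf5 having 2. The core occurred in 3 of the 10 windows, those of Chac1, Trib3 and Asns, against 3.97% of all 32851 windows. The windows below show these matches, together with the only match of the cyclic AMP response element TGACGTCA, which lay at Ppp1r15a and occurs in 1.79% of windows. Capitals mark the match, and each sequence reads 5′ to 3′ on the strand of the gene.
Chac1 (chr2:119351023-119351082, plus strand): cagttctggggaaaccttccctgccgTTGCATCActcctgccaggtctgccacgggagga
Asns (chr6:7693210-7693269, minus strand): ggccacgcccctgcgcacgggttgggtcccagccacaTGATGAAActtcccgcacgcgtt
Trib3 (chr2:152344028-152344057, minus strand): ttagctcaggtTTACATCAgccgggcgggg
Ppp1r15a (chr7:45526269-45526328, minus strand): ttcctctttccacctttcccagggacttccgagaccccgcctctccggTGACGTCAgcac
The Asns match lay 23 to 16 bases before the start and read TGATGAAA on the strand of the gene. At Chac1 the core was on the opposite strand, 193 to 186 bases before the start. At Trib3 it was on the opposite strand, 15 to 22 bases past the start. These positions count from the RefSeq start of each window. In the GENCODE gene models used for the FPKM values, Asns starts at 7693254 and Trib3 at 152344032, both on the minus strand. By those starts the Asns match lies inside the gene and the Trib3 match before it. The endoplasmic reticulum stress element, searched on both strands as CCAAT and CCACG with 9 bases between them, occurred in 0 of the 10 windows and in 0.119% of all windows. A match describes these letters only, and sites outside the windows were not searched. The 3 genes with the ATF4 core had log2 differences between KO and WT of −0.28 (Chac1), 0.03 (Trib3) and −0.23 (Asns). None of these passed the test described below, and no test compared the 3 genes with each other.

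None of the 9 genes passed the test for a difference between KO and WT. By limma on log2(FPKM + 1), with p adjusted by the Benjamini-Hochberg method over 11768 tested genes and a threshold of 0.05, 0 of 9 were called higher and 0 lower, against 0.603% and 0.408% of all tested genes. All 9 passed the filter of a mean of at least 1 FPKM. At an unadjusted p below 0.05 there were 2 of 9, Sesn2 and Ppp1r15a, which is 22.2% against 20.7% of all tested genes. A second test, limma-voom on whole reads recovered from the FPKM values, called 0 of 9, against 4.46% of genes called higher and 2.82% called lower, with 2 of 9 at an unadjusted p below 0.05 against 24.6%. The estimate lay below zero for 6 genes, against 46.0% of all tested genes, and the median was −0.23 against 0.03 over all tested genes.

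**Figure D1:**
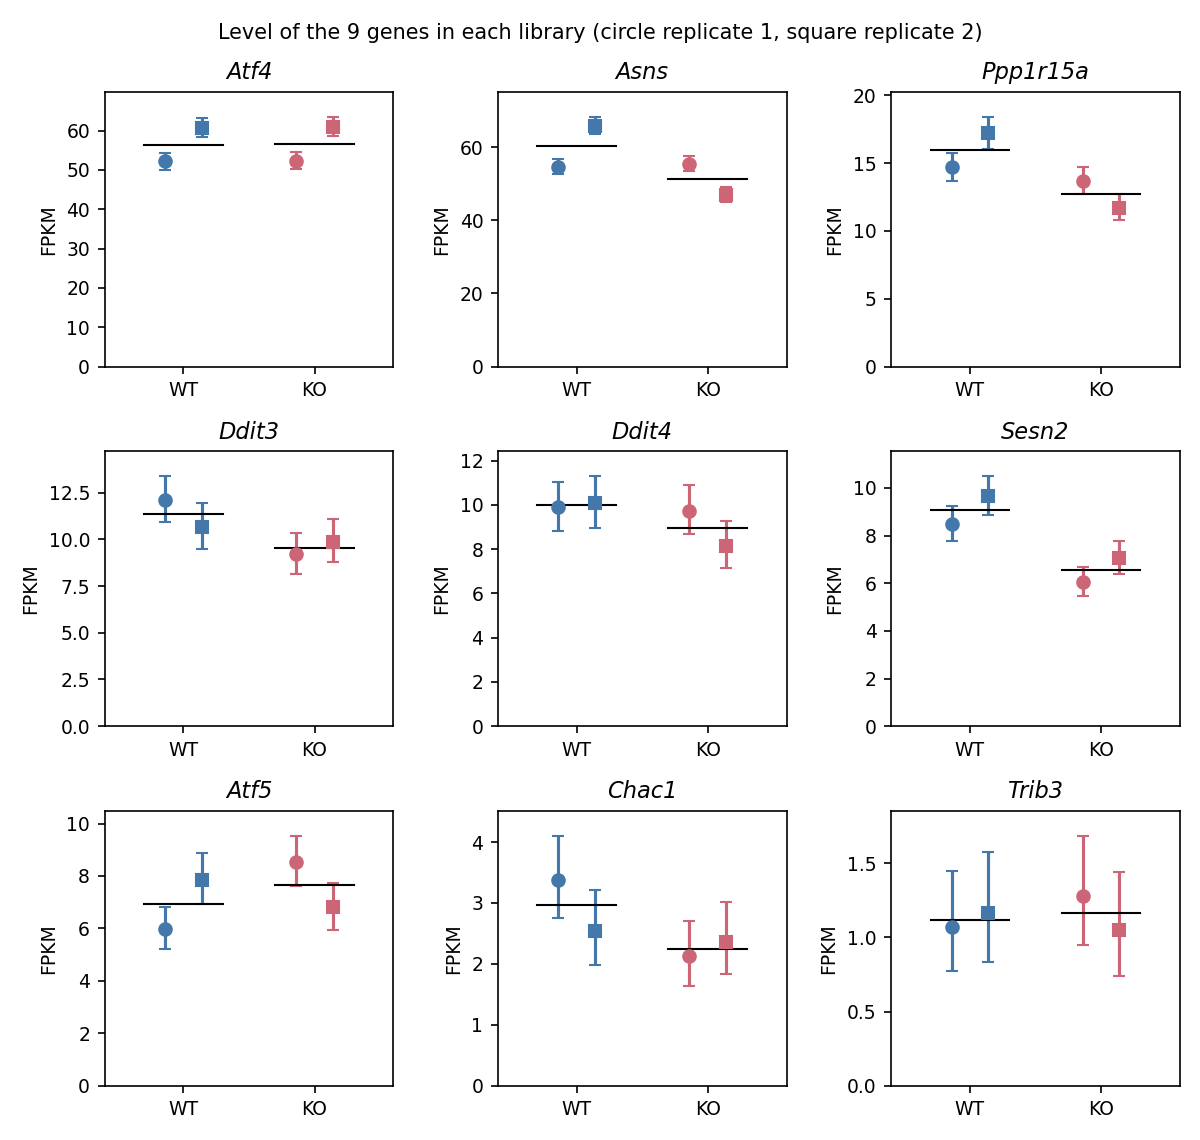
FPKM (y axis, from 0) of each gene in each WT and KO library, with exact Poisson 95% counting intervals as bars and the mean of each group as a line; genes are ordered by mean level. Atf4 shows the same pair of levels in both genotypes, while both KO points of Sesn2 (6.05 and 7.06) lie below both WT points (8.48 and 9.64).

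Atf4, the central factor (chromosome 15, 80255184 to 80257541, GRCm38), was at 52.2 and 60.7 FPKM in WT and at 52.3 and 61.0 FPKM in KO. The 2 genotypes thus had nearly the same pair of levels, 56.4 ± 6.07 and 56.7 ± 6.12 FPKM (SD, n = 2). The log2 difference was 0.01 (SE 0.12, 95% limits −0.28 to 0.29, limma adjusted p = 0.983). Those limits correspond to values from 17.5% lower to 22.1% higher in KO. With 2269 to 2450 reads per library, the counting intervals of the 2 WT libraries did not overlap, nor did those of the 2 KO libraries. The 2 libraries of a genotype differed by 1.16-fold in WT and 1.17-fold in KO.

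Atf5, a related bZIP factor that is also under translational control and takes part in the mitochondrial stress response, was at 5.98 and 7.86 FPKM in WT and at 8.53 and 6.80 FPKM in KO. The groups overlapped, with the lowest value in a WT library and the highest in a KO library. Its log2 difference was 0.13 (SE 0.16, limma adjusted p = 0.663). Exons of Atf5 overlap those of Nup62 and Il4i1 on the other strand. The library description does not mention strand marking, so reads there cannot be assigned with certainty. Nup62, chosen for this overlap, was at 79.9 to 89.3 FPKM across the 4 libraries.

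Ddit3 encodes CHOP, the bZIP factor tied to cell death under prolonged endoplasmic reticulum stress. It was at 12.1 and 10.7 FPKM in WT and at 9.19 and 9.87 FPKM in KO. Both KO values were under both WT values, but the gap between the nearest libraries was smaller than the spread within WT. The log2 difference was −0.23 (SE 0.10, 95% limits −0.48 to 0.02, limma adjusted p = 0.265). The symbol belongs to 2 annotated genes on chromosome 10. The deposited values gave whole reads with the model from 127290774 to 127296288, whose exons overlap those of the methionyl-tRNA synthetase gene on the other strand. That neighbour, Mars1, chosen for this overlap, was at 38.8 and 35.1 FPKM in WT and at 31.3 and 28.1 in KO (limma adjusted p = 0.176). It was thus also lower in both KO libraries, and its part in the Ddit3 value was not tested.

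Asns, asparagine synthetase, makes asparagine from aspartate and glutamine (chromosome 6, 7675169 to 7693254). It was at 54.6 and 65.8 FPKM in WT and at 55.4 and 47.0 FPKM in KO. One library of each genotype was close to 55 FPKM, and the others lay on either side of it. The log2 difference was −0.23 (SE 0.13, limma adjusted p = 0.350), and it was −0.09 without WT replicate 2 and −0.11 without KO replicate 2. Asns was read as deeply as Atf4, with 2190 to 2988 reads, and its replicates differed by 1.21-fold in WT and 1.18-fold in KO.

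Chac1 encodes an enzyme that degrades glutathione. It was at 3.38 and 2.54 FPKM in WT and at 2.12 and 2.37 FPKM in KO, from 102 and 69 against 64 and 66 reads. The KO values were the lowest, and the counting intervals of WT replicate 2 (1.98 to 3.22 FPKM) and KO replicate 2 (1.83 to 3.01 FPKM) overlapped. Its log2 difference was −0.28 (SE 0.15, limma adjusted p = 0.347). The estimate was −0.13 without WT replicate 1 and −0.39 by limma-voom, which adds no pseudocount of 1 FPKM to this low gene.

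Sesn2, sestrin 2, senses leucine and restrains the growth kinase complex mTORC1, and is also a p53 target (chromosome 4, 132492032 to 132510501). It was at 8.48 and 9.64 FPKM in WT and at 6.05 and 7.06 FPKM in KO, from 544 and 556 against 387 and 418 reads. The groups did not overlap. Group means were 9.06 ± 0.820 and 6.55 ± 0.717 FPKM (SD, n = 2), a log2 difference of −0.41 (SE 0.12, 95% limits −0.70 to −0.13). No other gene of the set had a lower p. It did not pass the test (limma adjusted p = 0.154, limma-voom adjusted p = 0.0669). With 1 library left out the estimate ran from −0.51 to −0.32.

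Ddit4, also called REDD1, restrains mTORC1 through the TSC complex and responds to hypoxia and glucocorticoids as well as to ATF4. It was at 9.88 and 10.1 FPKM in WT and at 9.74 and 8.16 FPKM in KO. KO replicate 1 was within counting error of both WT libraries, and KO replicate 2 was the lowest. The log2 difference was −0.15 (SE 0.11, limma adjusted p = 0.477) and −0.03 without KO replicate 2.

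The feedback genes gave different estimates. Ppp1r15a encodes GADD34, which brings protein phosphatase 1 to eIF2 and so restores translation (chromosome 7, 45522916 to 45526268). It was at 14.7 and 17.2 FPKM in WT and at 13.7 and 11.7 FPKM in KO, means of 16.0 ± 1.76 and 12.7 ± 1.42 FPKM (SD, n = 2). Both KO values were below both WT values. The log2 difference of −0.31 (SE 0.12) had an unadjusted limma p of 0.0413 and did not pass (adjusted p = 0.224). It was −0.20 without WT replicate 2 or without KO replicate 2. Exons of Ppp1r15a overlap those of Tulp2 on the other strand, which was at 0.112 to 0.344 FPKM.

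Trib3, a pseudokinase that binds AKT and damps ATF4 activity, was the least abundant of the 9. It was at 1.07 and 1.16 FPKM in WT and at 1.28 and 1.05 FPKM in KO, from 38 to 50 reads. The groups overlapped, and all 4 values were inside each other's counting intervals. Its log2 difference was 0.03 (SE 0.16, 95% limits −0.37 to 0.43, limma adjusted p = 0.932).

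**Figure D2:**
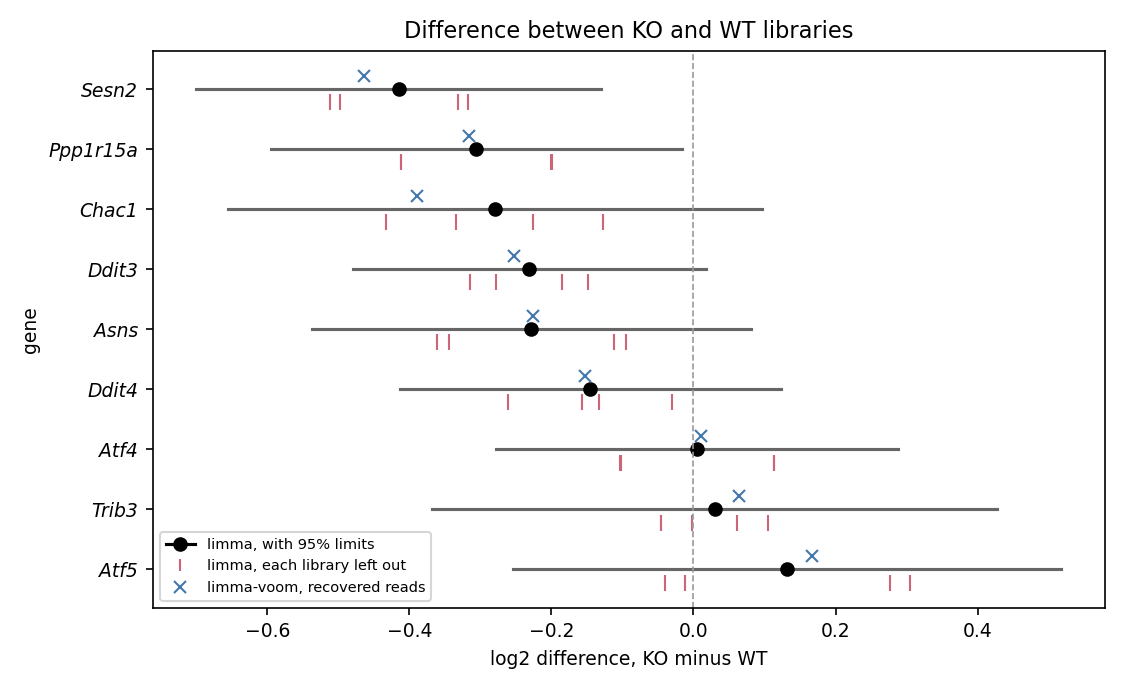
Log2 difference between KO and WT (x axis) for each of the 9 genes (y axis), with limma estimates and 95% limits as black points and lines, estimates with each library left out as red ticks, and limma-voom estimates as blue crosses. Sesn2 lies farthest below zero at −0.41, and Atf4, Trib3 and Atf5 have leave-one-out estimates on both sides of zero.

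Across the set, both KO libraries were below both WT libraries for 5 of 9 genes (Ddit3, Chac1, Sesn2, Ppp1r15a and Ddit4), 55.6% against 24.9% of all tested genes. Both were above for 0 of 9, against 30.5% of all tested genes, and 4 overlapped. None of these 5 passed the test. KO replicate 2 was the lowest library for 4 genes and WT replicate 2 the highest for 4, so the order was not the same from gene to gene. The 2 replicates of a genotype differed by 1.02-fold to 1.33-fold, and in 7 of the 18 replicate pairs their counting intervals did not overlap.

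Levels per length differed widely among the 9 genes. Averaged over the 4 libraries, Atf4 (56.6 ± 4.98 FPKM) and Asns (55.7 ± 7.75) were highest and could not be ordered, since Atf4 exceeded Asns in 1 of 4 libraries. Both were above about 90% of tested genes, as 90.0% lay below Atf4 and 89.8% below Asns. Ppp1r15a followed at 14.3 ± 2.28 FPKM, with no overlap with Asns. From there the ranges of neighbours overlapped through Ddit3 (10.5 ± 1.24), Ddit4 (9.46 ± 0.878), Sesn2 (7.81 ± 1.58) and Atf5 (7.29 ± 1.13). Chac1 (2.60 ± 0.545) and Trib3 (1.14 ± 0.104) stood below with no overlap (SD over n = 4 libraries). Only 2.92% of tested genes were lower than Trib3, which was just above the filter.

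The list of eIF2 kinases and eIF2 machinery showed no called change. It covered the kinases, eIF2, its exchange factor eIF2B and its phosphatases. Also on it were Dnajc3, Nck1, Gcn1, Impact, Oma1, Dele1, Prkra, Eif2a, Eif2d, Denr and Mcts1. Limma called 0 of its 27 tested genes in either direction. The median was −0.03, against 0.03 for all tested genes. Against 20.7% of all tested genes, 2 of the 27 had an unadjusted limma p below 0.05. These were Eif2b5, the catalytic subunit of eIF2B, at 39.3 and 30.1 FPKM in WT and 26.5 and 24.8 in KO (limma adjusted p = 0.182), and Eif2s1, the subunit that is phosphorylated, at 56.3 and 59.6 against 50.7 and 43.7 FPKM (adjusted p = 0.191). Limma-voom called 0 of them.

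All 4 eIF2 kinases were transcribed, and are given for their role. The haem-regulated kinase gene Eif2ak1 was the highest, at 11.9 and 12.6 FPKM in WT and 11.4 and 10.6 in KO (limma adjusted p = 0.415). Eif2ak2, the kinase that senses double-stranded RNA, was at 7.88 to 9.28 FPKM. Eif2ak3, the kinase PERK of the endoplasmic reticulum, was at 1.67 to 2.01 FPKM. Eif2ak4, the amino acid sensor GCN2, was at 2.39 and 3.12 FPKM in WT and 3.36 and 4.23 in KO (adjusted p = 0.269). Ppp1r15b, the constitutive partner of the eIF2 phosphatase, was at 10.2 to 12.5 FPKM. None of these kinase genes passed the test.

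Partner bZIP and related stress factors were likewise not called, with 0 of 13 tested genes changed and a median of 0.00. The largest estimates were higher in KO: Cebpa was at 7.63 and 6.72 FPKM in WT and 8.32 and 13.1 in KO (limma adjusted p = 0.238), and Jund at 2.37 and 4.26 against 4.82 and 5.28 FPKM (adjusted p = 0.243). Cebpb, an abundant C/EBP partner named for its role, was at 79.2 and 54.4 FPKM in WT and 66.8 and 77.9 in KO. Atf3, a factor downstream of ATF4, stayed under the filter at 0.381 to 0.616 FPKM.

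Among other ATF4 targets the calls depended on the test. By limma 0 of the 27 tested general targets changed (median −0.11). At an unadjusted limma p below 0.05, 7 were lower and 2 higher, against 20.7% of all tested genes in either direction. By limma-voom 3 fell and 2 rose, against 2.82% and 4.46% of all genes it tested. Those that fell were Hmox1, the haem-degrading oxygenase, at 14.7 and 18.6 FPKM in WT and 9.43 and 8.88 in KO (limma-voom adjusted p = 0.0080, limma adjusted p = 0.0567), Aldh18a1, of proline synthesis, and Gpt2, a mitochondrial alanine transaminase. Cyb5r1 and Vegfa rose by limma-voom (adjusted p = 0.0363 and 0.0460). Hmox1 is also on the list of macrophage markers, whose levels are given below.

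Of 6 tested serine and one-carbon enzymes that ATF4 controls, 3 fell in KO by limma-voom, against 2.82% of all genes it tested. By limma 0 changed, with a median of −0.28. Phgdh, the first enzyme of serine synthesis, was at 59.9 and 64.7 FPKM in WT and 40.7 and 27.9 in KO (limma adjusted p = 0.0904, limma-voom adjusted p = 0.0023). Psat1, the transaminase of the same path, was at 52.3 and 58.0 against 38.8 and 37.2 FPKM (limma adjusted p = 0.0656, limma-voom adjusted p = 0.0063). The third was Shmt2, the mitochondrial serine hydroxymethyltransferase (limma-voom adjusted p = 0.0358). Both KO libraries were below both WT libraries for 4 of the 6 enzymes and above for 0, against 24.9% and 30.5% of all tested genes. The 4 include the 3 that limma-voom called, for which the lack of overlap adds nothing to the call.

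Aminoacyl-tRNA synthetases, which charge tRNAs with amino acids, had estimates below zero for all 12 tested (median −0.22), against 46.0% of all tested genes. Limma called 0. At an unadjusted limma p below 0.05, 6 were lower and 0 higher, against 20.7% of all tested genes in either direction. By limma-voom 3 fell, against 2.82% of all genes it tested. These were Yars, for tyrosine, at means of 25.6 and 18.7 FPKM in the WT and KO groups (limma-voom adjusted p = 0.0172, limma adjusted p = 0.105), Hars for histidine and Gars for glycine. Amino acid transporters were not called by either test (8 tested, median 0.09). Slc3a2, the heavy chain shared by several transporters, was at 59.6 and 62.3 FPKM in WT and 49.7 and 48.9 in KO (limma adjusted p = 0.136, limma-voom adjusted p = 0.0648). Slc7a11, the cystine transporter chosen for its role, was at 0.211 to 0.264 FPKM, under the filter.

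**Figure D3:**
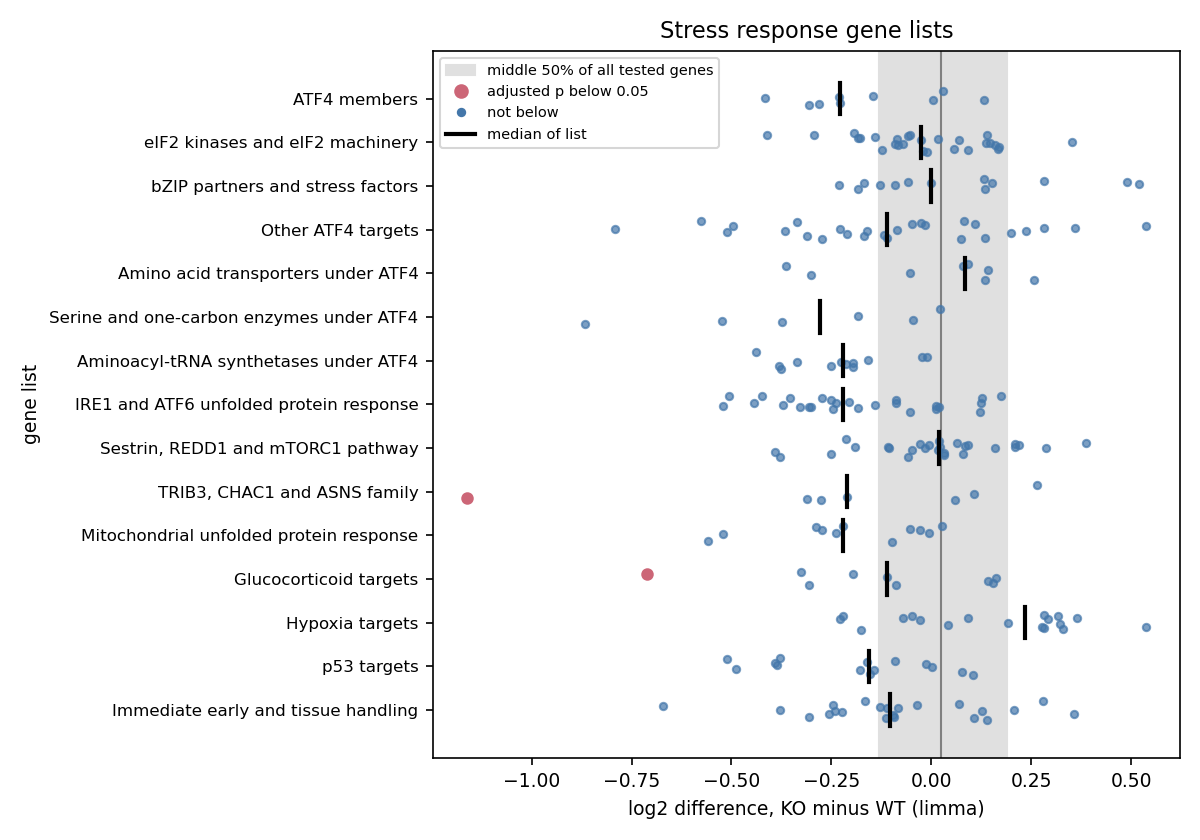
Limma log2 difference between KO and WT (x axis) for each tested gene of each list (y axis), with called genes in red, list medians as black bars, and the middle 50% of all tested genes shaded (−0.13 to 0.19, median 0.03). Ass1 (−1.16) and Tsc22d1 (−0.71) were the only genes called, and the 9 members have a median of −0.23.

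Relatives and metabolic neighbours of the targets held 1 called gene. Of 7 tested, Ass1, argininosuccinate synthetase, the step of arginine synthesis that consumes aspartate, fell and 0 rose (median −0.21). Among all tested genes 0.408% were called lower and 0.603% higher. Ass1 was at 10.3 and 8.71 FPKM in WT and at 3.67 and 3.72 FPKM in KO, a log2 difference of −1.16 (SE 0.12, limma adjusted p = 0.0180, limma-voom adjusted p = 0.000555). Both KO libraries were well below both WT libraries. With any 1 library left out Ass1 kept its direction but did not pass (limma adjusted p from 0.0654 to 0.129), nor did it without the filter on level (0.0536). Asl, the next enzyme of that path, was at 21.1 and 19.0 against 17.5 and 16.9 FPKM (limma adjusted p = 0.255).

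The other arms of the unfolded protein response, run by IRE1 and ATF6, also had low estimates. Of 26 tested genes 0 changed by limma, with a median of −0.22. At an unadjusted limma p below 0.05, 10 were lower and 0 higher, against 20.7% of all tested genes in either direction. By limma-voom 3 fell, against 2.82% of all genes it tested. Hspa5, the chaperone BiP, was at 438 and 428 FPKM in WT and 324 and 280.3 in KO (limma adjusted p = 0.104, limma-voom adjusted p = 0.0072). The disulphide isomerase genes Pdia4 and Pdia6 were the others that fell by limma-voom (adjusted p = 0.0217 and 0.0173). The mitochondrial unfolded protein list (11 tested, median −0.22) had 0 called by limma and 2 that fell by limma-voom, the chaperone genes Hspd1 and Hspa9 (adjusted p = 0.0074 and 0.0106). Hspd1 was at 133 and 140.1 FPKM in WT and 101 and 88.8 in KO (limma adjusted p = 0.0811).

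Over all 215 tested genes of the stress lists outside the 9, limma called 2 lower (Ass1 and Tsc22d1) and 0 higher. The shares over all tested genes were 0.408% and 0.603%. At an unadjusted limma p below 0.05 there were 24.7% of the 215, against 20.7% of all tested genes. Limma-voom called 16 of 211 lower (7.58%) and 2 higher (0.948%), against 2.82% and 4.46% of all genes it tested. The stress lists counted here take in those of the next paragraph: glucocorticoid, hypoxia, p53, sestrin and mTORC1, and immediate early. The lists share genes, and each gene was counted 1 time here.

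Other inputs to the 9 genes were looked at through lists of their own. Among glucocorticoid targets, which bear on Ddit4, 1 of 9 tested fell (median −0.11), against 0.408% of all tested genes called lower. This was Tsc22d1, at 29.5 and 26.2 FPKM in WT and 16.9 and 16.3 in KO (limma adjusted p = 0.0351). Tsc22d1 did not pass with any 1 library left out (0.0839 to 0.216), with the replicate number as a block (0.0561) or without the filter on level (0.0842). Among hypoxia targets, also upstream of Ddit4, 0 of 18 changed by limma with a median of 0.23, and Vegfa rose by limma-voom. Of these 18, 5 were higher and 1 lower at an unadjusted limma p below 0.05, against 20.7% of all tested genes in either direction. Both KO libraries were above both WT libraries for 11 of the 18 and below for 3, against 30.5% and 24.9% of all tested genes. Among p53 targets, which bear on Sesn2, 0 of 14 changed (median −0.16). At an unadjusted p below 0.05, 5 were lower and 0 higher, against 20.7% of all tested genes in either direction. Both KO libraries were below both WT libraries for 7 and above for 1, against 24.9% and 30.5% of all tested genes. The sestrin and mTORC1 list had 0 of 27 changed and a median of 0.02, with Sesn1 at a mean of 2.60 FPKM in WT and 1.75 in KO (limma adjusted p = 0.223). Immediate early genes, which can rise when tissue is handled, had 0 of 22 changed and a median of −0.10. Limma-voom also called 0 in the p53, mTORC1 and immediate early lists.

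Markers of other marrow cells differed between the labelled groups, in directions that varied between and within lists. For reference, limma called 0.603% of all tested genes higher and 0.408% lower. Both KO libraries lay above both WT libraries for 30.5% of all tested genes and below for 24.9%. Among mature neutrophil markers 5 of 16 tested had estimates below zero, 1 of them with both KO libraries below both WT libraries. In this list 10 of 16 rose, with a summed level of 1822 to 1917 FPKM in WT and 3769 to 4442 in KO. Of the macrophage markers 4 of 14 fell, C1qa, C1qb, C1qc and Lgmn, with sums of 699 to 729 and 530 to 554 FPKM. Of the erythroid markers 5 of 10 rose, 4 globin genes and Alas2 (sums 99.5 to 121 and 431 to 525 FPKM). Another 4, Car1, Car2, Klf1 and Gata1, had both KO libraries below both WT libraries and were not called by limma, while Car1 and Car2 fell by limma-voom. Of the 7 B and plasma cell markers tested, 1 had both KO libraries above both WT libraries and was not called, and 4 fell (sums 228 to 241 and 124 to 142 FPKM). With 1 library left out these counts became 1 to 7, 0 to 1, 2 to 4 and 0 to 2, and were lowest without WT replicate 1 or 2 in the neutrophil and macrophage lists. Car1 was called lower without WT replicate 2. Basophil, mast cell and eosinophil markers went both ways, with 2 of 8 higher (Ear6 and Siglecf) and 2 lower (Prss34 and Cpa3). Of the monocyte and dendritic markers 1 of 8 fell by limma, Irf8. Limma-voom called 4 of these 8 lower, against 2.82% of all genes it tested. Both KO libraries were below both WT libraries for 6 of the 8 and above for 1. Of the 14 macrophage markers limma-voom called 9 lower and 0 higher. For 11 of these 14 both KO libraries were below both WT libraries, and for 1 above. In the T and NK list 0 of 8 changed by limma. Both KO libraries were below both WT libraries for 6 and above for 2, against 24.9% and 30.5% of all tested genes. Limma-voom called Gzma lower and Thy1 higher in KO (limma-voom adjusted p = 0.0136 and 0.0170). Among granulocyte precursor markers 0 of 8 changed by limma, while limma-voom called 2 higher and 1 lower. The lower one, Mpo, was at 399 and 309 FPKM in WT and 192 and 166 in KO (limma adjusted p = 0.0532, limma-voom adjusted p = 0.000336). Cebpe rose from a mean of 184 FPKM in WT to 233 in KO (limma-voom adjusted p = 0.0496). Gfi1 rose from a mean of 6.68 FPKM in WT to 11.1 in KO (limma-voom adjusted p = 0.0386). In the macrophage, neutrophil and B cell lists none of the markers in the table was at 0 in any library, and in the erythroid list 1 was at 0 in KO replicate 1. The leukaemia genes Hoxa9 and Meis1, named for their role, were at 28.9 to 35.8 and 10.8 to 11.9 FPKM. The stem cell gene Kit was at 3.65 and 4.25 FPKM in WT and 7.36 and 7.15 in KO (limma adjusted p = 0.0512, limma-voom adjusted p = 0.000673). Cd34 was at 68.3 and 71.5 FPKM in WT and 50.5 and 49.8 in KO (limma adjusted p = 0.0650, limma-voom adjusted p = 0.0083), so the 2 genes lay on opposite sides. In bulk RNA fewer cells of a type and less RNA per cell cannot be told apart, and the part of these markers in the values of the 9 genes was not tested.

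The genes whose profile over the 4 libraries was closest to Atf4, by root mean square distance of log2(FPKM + 1) centred on its mean, were Ddx21, Trmt10a, Stau2, Ciart and Alkbh8 (distances 0.0086 to 0.017). Ddx21, a nucleolar RNA helicase, was at 17.4 and 20.7 FPKM in WT and 17.7 and 20.8 in KO. Closest to Asns were Tusc2, Ccna2, Emc9, Timm8a1 and 4930579G24Rik (0.014 to 0.022). Ccna2, cyclin A2, was at 28.1 and 33.3 FPKM in WT and 28.2 and 24.4 in KO. None of the other 8 stress genes was among the 5 nearest of Atf4 or of Asns, and over 4 libraries such likeness is a description only.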

How the data were processed

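The authors deposited 1 table of 16442 genes in 4 libraries. The submitters' processing notes name HISAT2 2.1.0, featureCounts, DESeq2, CASAVA and the build GRCm38, with roles and order not given in the sources used here. Its unit was inferred: the deposited values behaved as FPKM plus 1 (lowest value exactly 1), so 1 was taken off each. Symbols were looked up in GENCODE M21 (GRCm38), and 16014 had exactly 1 gene. FPKM times exonic length fell on whole reads (tolerance 0.05) for 99.0% to 99.2% of values up to 30 reads, which gave 16590830 to 18451252 assigned reads per library and whole reads for 15801 genes. At these depths 3 reads on 2 kb of exons equal 0.0813 to 0.0904 FPKM. Counting intervals are exact Poisson, 95%, and cover counting error only.

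KO and WT were compared with limma 3.58.1 (R 4.3.3, trend, two-sided, no covariates) on log2(FPKM + 1), a scale that understates changes of low genes, for 11768 genes averaging 1 FPKM or more. It had 2 residual and 4.10 prior degrees of freedom. A permutation of 2 against 2 libraries cannot go below p = 0.333, so p-values rest on spread shared between genes. Alternatives were limma-voom, another pseudocount or scaling, no filter, a replicate block and leaving out each library. Limma and limma-voom were tested on simulated data. The 9 genes and the lists were chosen with earlier results of these data known. Named genes are the 9, Rreb1, up to 4 per list by smallest p and the 5 nearest to Atf4 and to Asns. Members of the eIF2 list named without values only describe that list. Genes named for another reason (role, overlap or a limma-voom call) were chosen after their values were seen. Table columns not mapped to a sample numbered 0.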

Additional observations from a re-analysis of the deposited data

How the results depend on the processing

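Under 9 alternatives, 0 of the 9 genes was called in either direction (lowest adjusted p 0.0669, Sesn2 by limma-voom). Ddit3, Asns, Chac1, Sesn2, Ppp1r15a and Ddit4 stayed below zero in all 9. Estimates near zero changed sign: Atf4 (0.01) became −0.018 with median-of-ratios scaling. With 1 library left out Atf4 ran from −0.10 (without WT replicate 1 or KO replicate 2) to 0.11, Atf5 from −0.040 (without WT replicate 1) to 0.30, Trib3 from −0.046 (without KO replicate 1) to 0.11, and Rreb1 from −0.013 (without WT replicate 1) to 0.27. Over all genes, 71 higher and 48 lower became 22 and 10 without the filter, 508 and 321 by limma-voom, and 40 and 26 with the replicate block. With 1 library left out they ran from 4 to 50 and from 2 to 14, in fits where the lone library of a group is assumed to vary like the other group. Of the genes of the other stress lists, 2 called lower became 0 without the filter, 16 by limma-voom (with 2 higher), 1 with the replicate block, and 0 to 1 with a library left out. The replicate numbers were not used to pair the samples in the main fit, since no label ties them. Same-numbered libraries deviated with a correlation of 0.0090 over all tested genes, which cannot show whether the samples were paired. Trib3 and Chac1 rest on the fewest reads, 38 to 50 and 64 to 102 per library. The causes were not tested.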
